A study of Mus musculus with 12 samples.

Results

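The genes described here encode factors that remove the mRNA cap and nucleases that degrade RNA from its ends. They are 10 genes chosen by name: Dcp1a, Dcp1b, Dcp2, Edc3 and Edc4 for decapping, Xrn1 and Xrn2 for decay from the 5′ end, and Exosc3, Exosc10 and Dis3 for the exosome, which degrades RNA from the 3′ end. All 10 are among the 22801 genes of the table for metaphase II eggs (MII), and 4 of them (Dcp1a, Edc3, Exosc3 and Exosc10) are among the 3475 genes of the table for germinal vesicle oocytes (GV, arrested before maturation). Oocytes came from C57BL/6 females at postnatal day 35, with 15 oocytes in each tube. Conditional knockout oocytes (CKO, Lsm14bfl/fl-Gdf9-Cre) carried floxed Lsm14b alleles and the Gdf9-Cre recombinase, and control oocytes (WT, Lsm14bfl/fl) carried the same floxed alleles without Cre. Each genotype had 3 libraries at GV and 3 at MII, 12 in all. Gdf9-Cre is active in oocytes from early follicle stages, and the other cells of the ovary keep the gene. The series calls the libraries biological replicates, but whether each pool came from different females is not given in the sources used here, and p-values measure only the spread between these pools.

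An mRNA is usually degraded after its poly(A) tail has been shortened. DCP2 then cuts the cap, with DCP1A or DCP1B as its activator and EDC3 and EDC4 as enhancers that hold the complex together in processing bodies, and XRN1 degrades the exposed transcript from the 5′ end. The exosome is a ring of subunits, among them EXOSC3, with the nucleases DIS3 and EXOSC10 attached, and XRN2 is the nuclear relative of XRN1. LSM14B is an RNA-binding protein of oocyte ribonucleoprotein granules, where maternal mRNAs are stored. Fully grown mouse oocytes transcribe little, store maternal mRNAs, and degrade many of them during maturation. Dcp1a and Dcp2 are known in mouse as dormant maternal mRNAs whose translation rises in maturation.

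Dormant maternal mRNAs commonly carry U-rich cytoplasmic polyadenylation elements near the polyadenylation signal. The ends of the transcripts were therefore read for the 3 genes that were lower in CKO at GV and, beside them, for Edc4. Edc4 is not in the GV table, and its CKO and WT libraries overlapped at MII, as did those of Dcp1a and Exosc10. The genes shown are therefore not changed genes set against an unchanged one. The last 100 bases of the longest protein-coding transcript of each gene (GENCODE M21, GRCm38) were searched on the transcript strand for the elements TTTTAT and TTTTAAT and the signals AATAAA and ATTAAA. Each line gives 30 bases of an annotated 3′ untranslated region as DNA, 5′ to 3′, with these motifs in capitals.
Dcp1a: tatttTTTTAATAAAatttcaaaaccaagt
Exosc3: aaaacTTTTATatAATAAActttgttggta
Exosc10: cattttaaaaccATTAAAatgtattcctac
Edc4: aaaggcttttggAATAAAagaaagtatgtg
The Dcp1a site is at chr14:30527016-30527045 on the plus strand, and in it the element TTTTAAT overlaps the signal AATAAA. Dcp1a also has a TTTTAT that starts 67 bases from the transcript end, outside the bases shown. The Exosc3 site is at chr4:45316618-45316647 on the minus strand and has TTTTAT just before its signal. The Exosc10 site (chr4:148582363-148582392) and the Edc4 site (chr8:105893186-105893215), both on the plus strand, have a signal and neither element. Among the 10 genes only Dcp1a and Exosc3 have TTTTAT or TTTTAAT in this window, as do 16.6% of 21828 genes searched the same way. The signal AATAAA or ATTAAA is in the window of 9 of the 10 genes (all but Edc3) and of 74.9% of all genes searched. A match is a description of these letters and was not tested as a binding site.

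Lsm14b itself was low in every library labelled CKO. It had 1273 to 1601 normalized read counts in CKO and 18816 to 30132 in WT at GV, and 822 to 982 in CKO and 10643 to 11641 in WT at MII. A normalized read count is the number of reads of a gene divided by the size factor of its library. At MII the table held between 23077585 and 40530314 reads in CKO libraries and between 88494525 and 124872889 in WT libraries, so every WT library was the deeper. The selected genes of the GV table held between 9224577 and 11218303 reads in CKO libraries and between 6850576 and 11606262 in WT libraries. WT replicate 3 stood apart at MII: its Spearman correlation across genes was 0.847 to 0.877 in pairs with another library and 0.899 to 0.940 in the pairs without it. A single gene model, CT010467.1, held 24.3% of the reads in WT replicate 3, and 8.34% to 11.8% in CKO libraries and 6.56% to 8.77% in the other WT libraries. Differences between genotypes at MII are therefore also given without this library, and its part in the results beyond that was not tested. All 11 oocyte markers were measured at MII, with summed levels of 659646 to 767832 normalized counts in CKO and 586756 to 736316 in WT. The summed levels of the 7 cumulus and granulosa markers measured, out of 10, were 471 to 1131 in CKO and 783 to 3128 in WT, and none of them passed the test. Foxl2, Ptx3 and Tnfaip6 are not in that table. Among 6 measured markers of theca, stroma and endothelium, out of 9, none passed, and their sums were 3948 to 4655 in CKO and 3760 to 4715 in WT. Of 3 measured blood and immune markers, out of 7, C1qb was lower in CKO, and their summed level was 194 to 215 in CKO and 1118 to 1925 in WT. Kdr, Tie1, Col1a2, Pdgfra, Cd68 and C1qb are the markers listed in the GV table. The part of other cell types in the results was not tested.

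At GV, 3 of the 10 genes were lower in CKO oocytes and none was higher, by an adjusted p under 0.05 with over 2-fold in the authors' deposited table. Over all genes the same rule gave 7.89% lower and 4.96% higher of the 21462 genes that the authors' adjusted p-values imply. The genes that were lower were Exosc3, Dcp1a and Exosc10, 1 decapping activator and 2 exosome subunits. They were selected for a difference in these same libraries, so groups that do not overlap at GV add no further support. In pools of oocytes, less RNA in every oocyte cannot be told apart from fewer oocytes that contain it.

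Exosc3 encodes the subunit at the cap of the exosome ring where RNA enters. It had 291, 174 and 423 normalized counts in CKO replicates 1, 2 and 4, against 2029, 2348 and 2090 in WT replicates 1, 2 and 4. Every CKO library was far below every WT library, and the means of 296 ± 124 in CKO and 2156 ± 169 in WT (SD, n = 3 each) leave 13.7% of the WT level. The authors' deposited table gave a log2 fold change of -2.87 (SE 0.33, adjusted p = 3.84e-16). Between 225 and 443 reads in each CKO library and between 1683 and 2328 in each WT library stand behind these values. The Exosc3 gene (chr4:45316613-45342732, minus strand, GRCm38) shares 53 exonic bases with Dcaf10 on the other strand, which is 4.0% of its exon length. Dcaf10 is not in the GV table, and at MII it had a log2 difference of 0.66 (SE 0.40, limma adjusted p = 0.443), in the other direction from Exosc3.

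Dcp1a (chr14:30479535-30527063, plus strand, GRCm38) encodes the decapping activator of the DCP2 enzyme. Its levels were 234720, 228081 and 179357 normalized counts in CKO replicates 1, 2 and 4, against 509077, 435786 and 621821 in WT replicates 1, 2 and 4. The groups did not overlap, and the lowest WT library was above the highest CKO library by a wide margin. The means were 214053 ± 30230 in CKO and 522228 ± 93712 in WT (SD, n = 3 each), so 41.0% of the WT level remained. The log2 fold change in the authors' deposited table was -1.29 (SE 0.17, adjusted p = 3.80e-12).

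Exosc10 (chr4:148558429-148582401, plus strand, GRCm38) encodes the nuclear exonuclease of the exosome. Counts of 5488, 6815 and 6483 in CKO replicates 1, 2 and 4 stood against 17104, 10769 and 11464 in WT replicates 1, 2 and 4, all normalized. Again no CKO library reached the lowest WT library, and WT replicate 1 was higher than the other WT libraries. CKO averaged 6262 ± 691 and WT 13112 ± 3474 (SD, n = 3 each), or 47.8% of the WT level, with a log2 fold change of -1.07 (SE 0.21, adjusted p = 3.39e-06) in the authors' deposited table.

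Edc3, an enhancer of decapping, was listed at GV by its unadjusted p but did not pass the adjusted threshold. It had 770, 112 and 525 normalized counts in CKO replicates 1, 2 and 4, against 269, 47.7 and 122 in WT replicates 1, 2 and 4. The groups overlapped, since CKO replicate 2 was below WT replicates 1 and 4. The log2 fold change in the authors' deposited table was 1.68 (SE 0.78, adjusted p = 0.1). The Edc3 exons share 1284 bases, 22.1% of their length, with Clk3 on the other strand, and the strand setting of the counting is not given in the sources used here, so its value is uncertain. Clk3 is not in the GV table and at MII had a log2 difference of -1.14 (SE 0.30, limma adjusted p = 0.0947). Dcp1b, Dcp2, Edc4, Xrn1, Xrn2 and Dis3 are not in the GV table, which means only that they were not selected there.

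**Figure D1:**
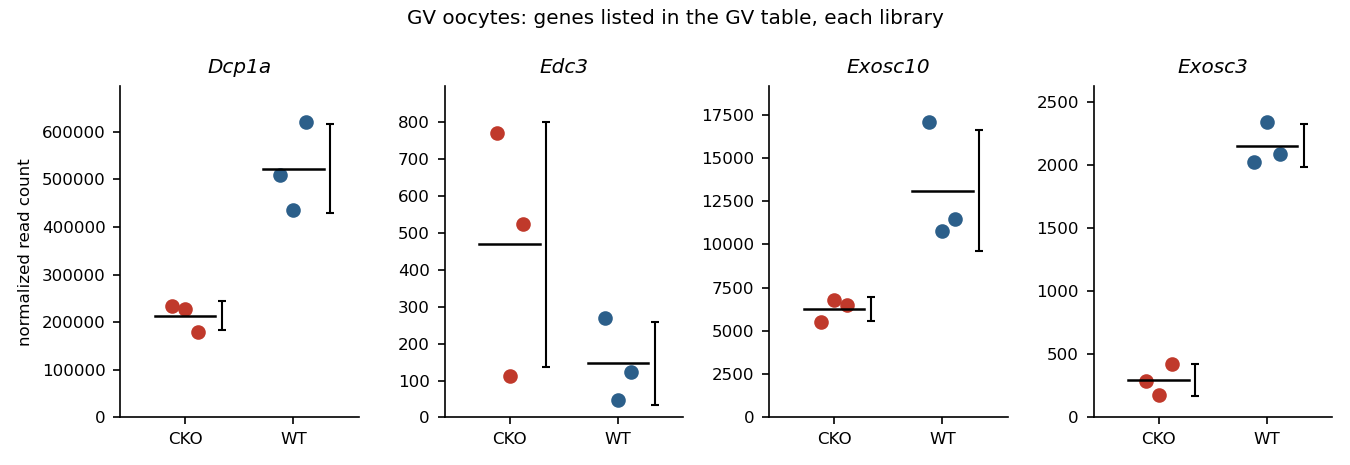
Normalized read counts of the 4 genes listed in the GV table, in CKO (red, left) and WT (blue, right) oocytes. Each point is a library, the horizontal line is the mean and the bar beside it is 1 SD (n = 3 each). The CKO points lie below all WT points for Dcp1a, Exosc10 and Exosc3, and the groups overlap for Edc3.

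At MII, none of the 10 genes passed limma at an adjusted p under 0.05, where 308 of 20388 genes did (1.51%), and limma-voom on the recovered reads called none of the 10 either. That number rests on all 6 libraries: without WT replicate 3 limma called 266 genes higher and 624 lower, and without any other single library it called 0 (with 971 to 1278 genes higher and 1409 to 1729 lower by the unadjusted p under 0.05). Exosc3 again had the largest difference and an adjusted p just above the threshold. At an unadjusted p under 0.05 there were 3 of 10 (Exosc3, Exosc10 and Dcp2, all lower in CKO), against 16.0% of all genes. The authors' deposited table called 1 of the 10, Exosc3, lower; by that rule 6.45% of its 16042 genes were lower and 4.10% higher. The log2 difference was below 0 for 8 of the 10 genes, against 53.5% of all genes, and its median was -0.56 over the 10 and -0.11 over all genes.

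Exosc3 had 88.1, 20.3 and 68.9 normalized counts in CKO replicates 2, 3 and 4, against 433, 436 and 1864 in WT replicates 1, 2 and 3. All CKO libraries were below all WT libraries, and WT replicate 3 was far above the other WT libraries. The means were 59.1 ± 35.0 in CKO and 911 ± 826 in WT (SD, n = 3 each). The log2 difference was -3.79 (SE 0.81, limma adjusted p = 0.0541), with a 95% interval of -5.61 to -1.98. Over the 12 alternative fits the difference ranged from -4.37 to -3.09 and the adjusted p from 0.0575 to 0.587. Without WT replicate 3 the CKO mean was 13.6% of the WT mean, in place of 6.48%. The CKO values rest on 64, 8 and 50 reads in replicates 2, 3 and 4, and the WT values on 734, 729 and 3636 reads in replicates 1, 2 and 3. In the authors' deposited table the log2 fold change was -3.93 (SE 0.79, adjusted p = 2.99e-05).

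For Exosc10 and Dcp1a, the other 2 genes that were lower at GV, WT replicate 3 lay at the level of the CKO libraries at MII. Without that library limma called Exosc10 but not Dcp1a. The level of Exosc10 was lower in CKO than in WT replicates 1 and 2 only. The CKO replicates 2, 3 and 4 had 4466, 4643 and 3890 normalized counts, against 10532, 9618 and 4539 in WT replicates 1, 2 and 3. WT replicate 3 lay among the CKO libraries, and the other WT libraries lay well above them. The log2 difference was -0.84 (SE 0.35, limma adjusted p = 0.288), with a 95% interval of -1.63 to -0.04. Without WT replicate 3 it was -1.22 (SE 0.13, limma adjusted p = 0.0346), the only one of the 10 called in that fit, where 3.06% of all genes were lower and 1.30% higher. Its adjusted p ranged from 0.0346 to 0.606 over the alternatives.

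Dcp1a levels at MII were 132749, 159012 and 116911 normalized counts in CKO replicates 2, 3 and 4, against 243771, 215375 and 117305 in WT replicates 1, 2 and 3. WT replicates 1 and 2 were above all CKO libraries, and WT replicate 3 was level with the lowest of them. This gave a log2 difference of -0.44 (SE 0.38, limma adjusted p = 0.624), with a 95% interval of -1.29 to 0.41. Leaving out WT replicate 3 gave -0.76 with an adjusted p of 0.208, within a range of 0.208 to 0.950 over the alternatives. The CKO mean was then 59.3% of the WT mean, in place of 70.9%.

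Dcp2, the decapping enzyme, was the other gene besides Exosc3 whose groups did not overlap at MII. It had 1542, 1253 and 1968 normalized counts in CKO replicates 2, 3 and 4, against 2567, 1979 and 4856 in WT replicates 1, 2 and 3. The gap was narrow, since CKO replicate 4 and WT replicate 2 were nearly level, and WT replicate 3 was the highest. Its log2 difference of -0.90 (SE 0.39, limma adjusted p = 0.298) had a 95% interval of -1.77 to -0.03, and was -0.53 without WT replicate 3. These are 2 of 10 with every CKO library below every WT library and 0 of 10 with every one above, against 12.0% and 10.4% of all genes. When WT replicate 3 was left out, 5 of the 10 were so ordered (Dcp1a, Dcp2, Xrn1, Exosc10 and Exosc3), against 21.8% of all genes, and none was so ordered in the other direction, against 15.6%.

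**Figure D2:**
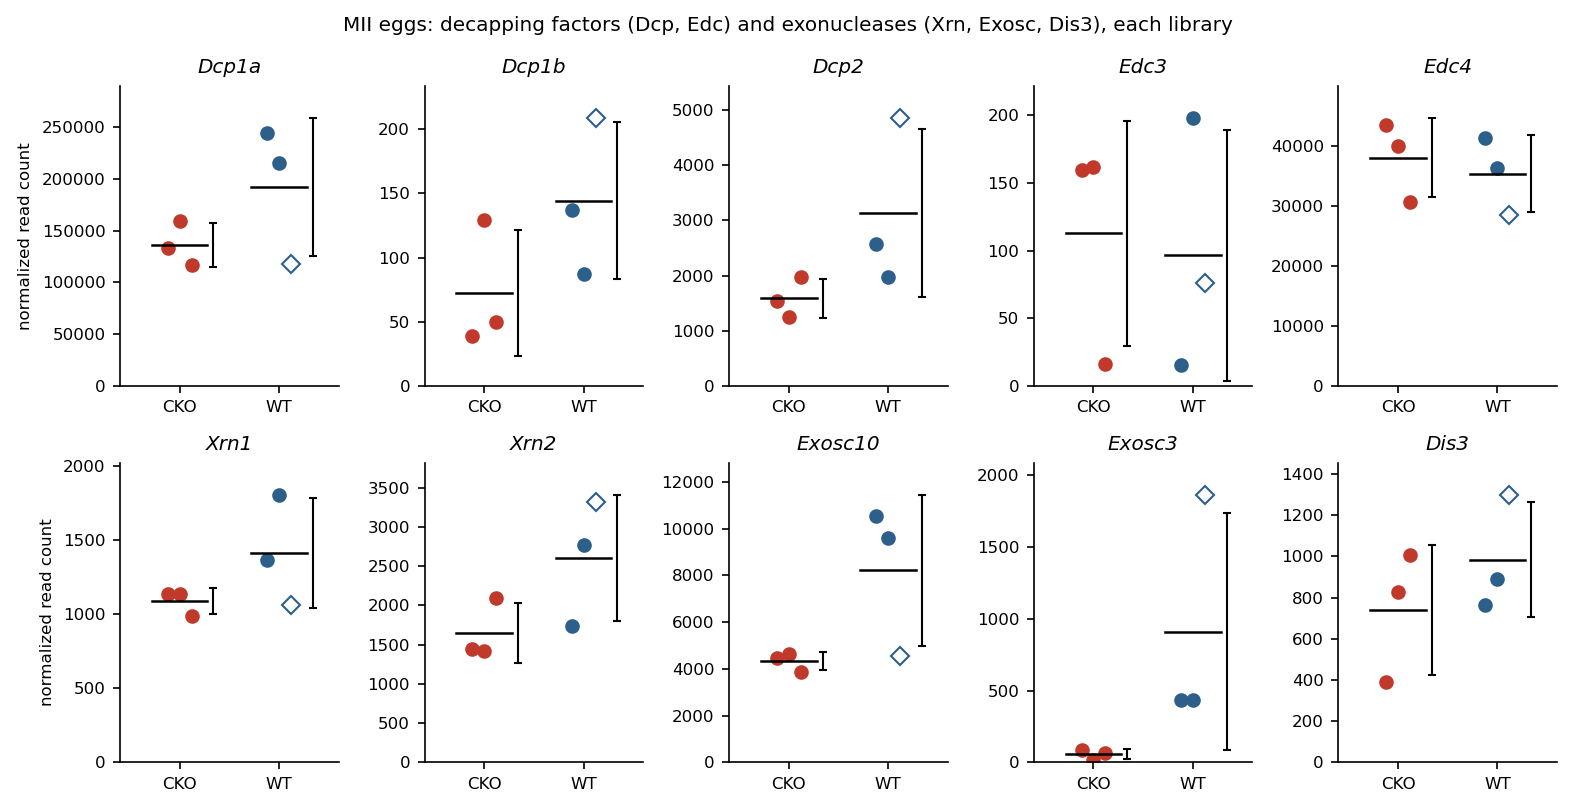
Normalized read counts of the 10 genes in CKO (red, left) and WT (blue, right) MII eggs. Each point is a library, the open diamond is WT replicate 3, the horizontal line is the mean and the bar beside it is 1 SD (n = 3 each). For Exosc3 the CKO libraries lie between 20.3 and 88.1 and the WT libraries between 433 and 1864. For Dcp1a and Exosc10 the open diamond lies at the level of the CKO libraries.

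No difference of the other decapping factors passed the test at MII, and in each the groups overlapped. Edc4, the scaffold of the decapping complex, had 43361, 39973 and 30659 normalized counts in CKO replicates 2, 3 and 4, against 41254, 36325 and 28474 in WT replicates 1, 2 and 3. The groups covered nearly the same range. The log2 difference was 0.11 (SE 0.29, limma adjusted p = 0.866), and its 95% interval of -0.55 to 0.76 corresponds to between 0.684 and 1.69 times the WT level. The Edc4 exons share 458 bases, 8.3% of their length, with Nrn1l on the same strand. Nrn1l had a log2 difference of -0.25 (SE 0.46, limma adjusted p = 0.788). Dcp1b, the relative of Dcp1a, was low in all libraries, at 38.6 to 129 normalized counts in CKO and 87.3 to 209 in WT. Its log2 difference of -1.10 had an SE of 0.81 (limma adjusted p = 0.553) and a 95% interval of -2.92 to 0.72. Edc3 ranged from 16.5 to 162 normalized counts in CKO and from 15.3 to 198 in WT, with as few as 12 reads in a CKO library and 26 in a WT library. Its log2 difference of 0.29 (SE 1.24, limma adjusted p = 0.918) has a 95% interval of -2.48 to 3.06, too wide to show a change of the size listed at GV.

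Among the exonucleases that act outside the exosome, Xrn1, the cytoplasmic enzyme that follows decapping, had 1141, 1139 and 989 normalized counts in CKO replicates 2, 3 and 4, against 1371, 1810 and 1065 in WT replicates 1, 2 and 3. WT replicate 3 lay within the CKO range and the other WT libraries above it. The log2 difference was -0.35 (SE 0.34, limma adjusted p = 0.629), with a 95% interval of -1.11 to 0.41. The nuclear Xrn2 had 1425 to 2090 normalized counts in CKO and 1736 to 3321 in WT, with a log2 difference of -0.63 (SE 0.35, limma adjusted p = 0.403) and a 95% interval of -1.42 to 0.15. Dis3, the main nuclease of the exosome, had 388 to 1006 in CKO and 764 to 1300 in WT, and its log2 difference of -0.49 (SE 0.45, limma adjusted p = 0.628) had a 95% interval of -1.50 to 0.53. For all 3 the groups overlapped. The Dis3 exons share 325 bases, 4.2% of their length, with Pibf1 on the other strand. Pibf1 is in the GV table and at MII had a log2 difference of -1.50 (SE 0.57, limma adjusted p = 0.236). The Xrn1 exons share 604 bases with C78334 and 184 with Gm16794, both on the other strand.

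**Figure D3:**
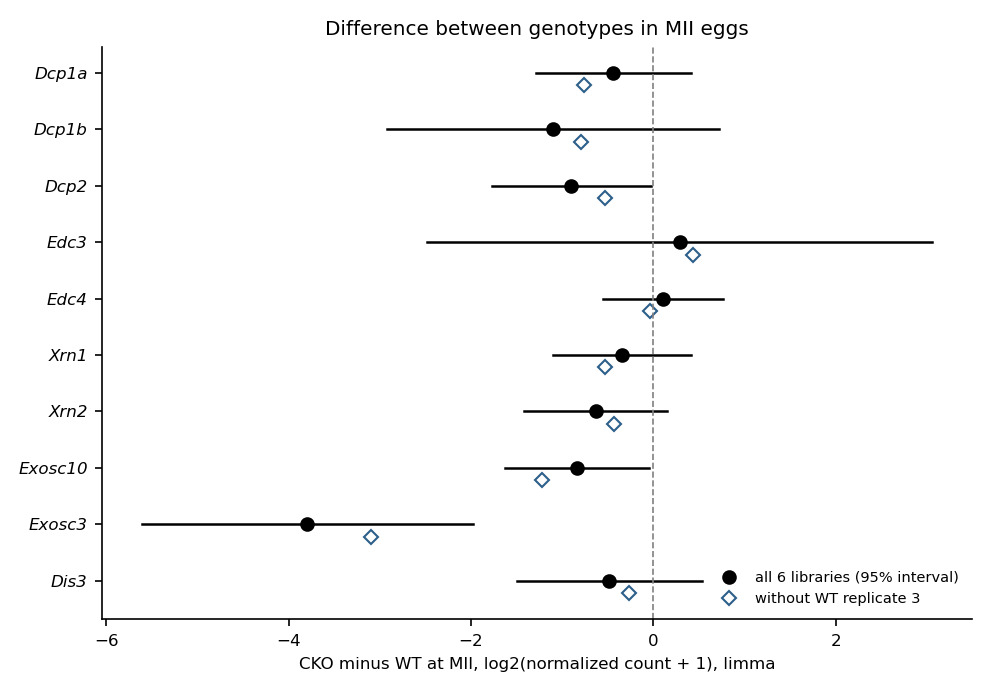
Limma log2 differences, CKO minus WT, of the 10 genes at MII on the log2(normalized count + 1) scale. Black points with 95% intervals use all 6 libraries and open diamonds leave out WT replicate 3. Exosc3 lies at -3.79, the other 9 genes lie between -1.10 and 0.29, and Exosc10 moves to -1.22 without WT replicate 3.

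Levels were set beside each other per kilobase of exon (GENCODE M21), since longer transcripts give more reads. At MII Dcp1a had 16552 ± 2584 normalized counts per kilobase in CKO and 23348 ± 8063 in WT (SD, n = 3 each), and in WT its mean ranked at 54 among 22177 genes with a length. Edc4 followed with 6912 ± 1196 in CKO and 6431 ± 1173 in WT, which ranked at 314 in WT. The order in WT went on with Exosc10, Exosc3, Xrn2, Dcp2, Dis3, Xrn1, Dcp1b and Edc3, by mean counts per kilobase between 2290 and 16.6. The WT mean of Exosc3, and so its place and rank, was raised by WT replicate 3. That library had 1864 normalized counts, against 433 and 436 in WT replicates 1 and 2. Levels and ranks are not given without it. In CKO Exosc3 had a mean of 44.6 counts per kilobase, below the means of Xrn2, Dcp2, Dis3 and Xrn1. It ranked at 9610 there and at 2959 in WT. Across CKO libraries its range (15.3 to 66.6) overlapped those of Dis3 (50.1 to 130) and Xrn1 (53.2 to 61.4). Dcp1a was above Edc4 and Edc4 above Exosc10 in every WT library. Across WT libraries the ranges of Exosc10 (1263 to 2930), Exosc3 (327 to 1408), Xrn2 (436 to 834) and Dcp2 (227 to 558) overlapped from each to the next, as did those of Dcp1b (13.8 to 32.9) and Edc3 (2.64 to 34.1). Dis3 (98.6 to 168) and Xrn1 (57.3 to 97.4) lay between them without overlap, though nearly touching each other. Of the paired activator genes, Dcp1a exceeded Dcp1b by a ratio per kilobase of 949 to 2652 in CKO libraries and 433 to 1899 in WT libraries, and the groups overlapped.

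Ratios of 2 genes within a library do not depend on how libraries were scaled. Per kilobase, Exosc3 was at 14.4%, 6.94% and 17.7% of the Exosc10 level in CKO replicates 1, 2 and 4 at GV, against 32.2%, 59.2% and 49.5% in WT replicates 1, 2 and 4. At MII the same ratio was 5.36%, 1.18% and 4.81% in CKO replicates 2, 3 and 4, against 11.1%, 12.3% and 111% in WT replicates 1, 2 and 3. The CKO libraries were below the WT libraries at each stage, so Exosc3 was lower relative to Exosc10 as well as in its own counts. At GV both genes were selected for a difference in these same libraries, so their ratio there adds no further support. At MII the ratio of Dcp1a to Edc4 was 2.04, 2.66 and 2.55 in CKO replicates 2, 3 and 4, against 3.95, 3.96 and 2.75 in WT replicates 1, 2 and 3. Every CKO library was below every WT library here too, with WT replicate 3 close to the CKO libraries. Dcp1a relative to Exosc10 was 12.1 to 18.7 in CKO and 13.0 to 23.7 in WT at GV, where the groups overlapped, and 13.0 to 15 in CKO and 9.78 to 11.3 in WT at MII, where every CKO library was above every WT library. The pairs were chosen by name, and the share of all gene pairs with such an order was not computed. The orders of these ratios are therefore description only.

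**Figure D4:**
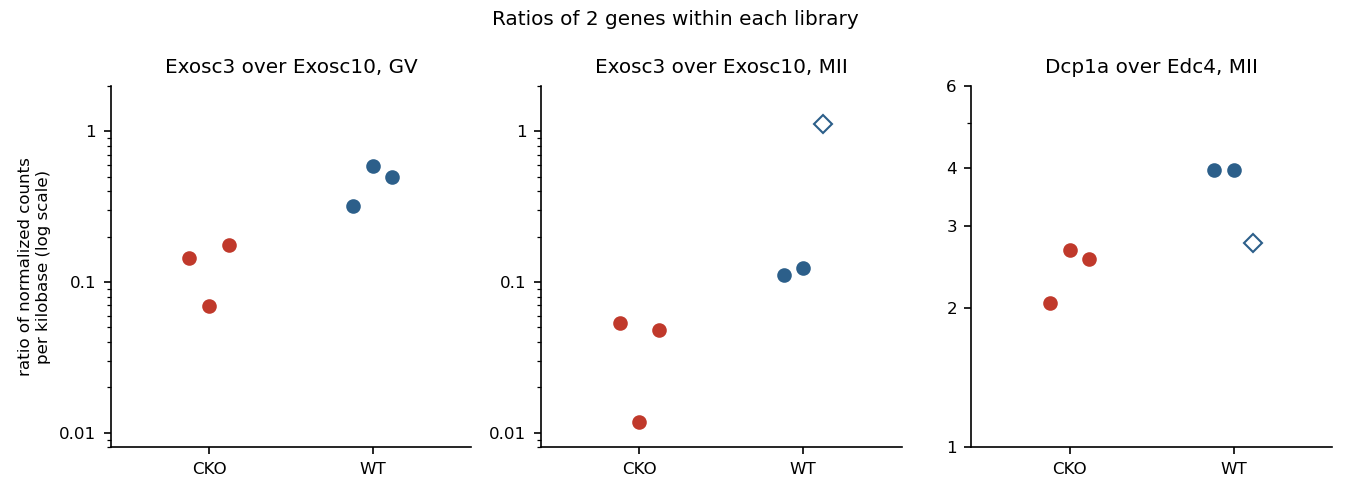
Ratios of normalized counts per kilobase within each library, on log axes, for Exosc3 over Exosc10 at GV and at MII and for Dcp1a over Edc4 at MII. Points are libraries, CKO in red on the left and WT in blue on the right, and the open diamond is WT replicate 3. The CKO points lie below all WT points in each panel.

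Genes that work with these factors were taken from a list of 58 further genes of decapping, nonsense-mediated decay, the exosome and other exonucleases. At MII 57 were measured (all but Isg20l2) and 56 tested (Exosc6 was below the filter), and limma called 1 higher (0.520% of all genes were higher) and 2 lower (0.991% of all genes). The log2 difference was below 0 for 41 of the 56, against 53.5% of all genes, and its median was -0.45 over the list and -0.11 over all genes. The count and the median of the list include WT replicate 3 and were not computed without it. That library was far above WT replicates 1 and 2 for some genes, as for Mphosph6 (63819 against 13545 and 15844 normalized counts). It was below them for others, as for Dxo (1547 against 2943 and 3109). For the list at GV, calls in the authors' deposited table numbered 3 higher and 4 lower of 58, a share near that of all genes (4.96% higher and 7.89% lower). In the limma fit without WT replicate 3, 5 of the list were called: Patl2 and Ddx6 higher, and Dxo, Tent4b and Cdkn2aipnl lower, where 1.30% of all genes were higher and 3.06% lower.

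Among 18 factors of the cap end of mRNA, limma called 1, Patl2, which was higher in CKO, as were 0.520% of all genes. Patl2, an oocyte-type relative of the decapping activator PATL1, had 4333, 3385 and 3234 normalized counts in CKO replicates 2, 3 and 4 at MII, against 643, 853 and 1266 in WT replicates 1, 2 and 3. The groups were well separated, with a log2 difference of 2.03 (SE 0.35, limma adjusted p = 0.0269). The adjusted p ranged from 0.0268 to 0.587 over the alternatives, and the call was lost when any single library other than WT replicate 3 was left out; the same holds for Tent4b and Cdkn2aipnl below. At GV, where the authors' deposited table also called it higher, Patl2 averaged 23420 ± 744 in CKO and 5801 ± 714 in WT (SD, n = 3 each). Ddx6, the helicase of processing bodies that binds decapping factors, had 3677, 4064 and 3007 in CKO replicates 2, 3 and 4 at MII, against 790, 562 and 1977 in WT replicates 1, 2 and 3. Its log2 difference of 1.89 (SE 0.46) did not pass with all libraries (limma adjusted p = 0.0767) and was 2.41 without WT replicate 3 (adjusted p = 0.0346, with a range of 0.0346 to 0.587 over the alternatives). The authors' deposited table called it higher at both stages. Nudt3, a hydrolase that can remove caps, was called lower at MII in the authors' deposited table (log2 fold change -2.95) and had a limma log2 difference of -2.77 (SE 0.77, adjusted p = 0.113). No gene of the LSM1 to LSM7 ring, which binds the ends of deadenylated mRNAs and activates decapping, passed limma. Of all genes, 1.51% did.

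No other gene of the exosome ring passed limma at MII, where 1.51% of all genes did. Of 7 tested, 6 had a log2 difference below 0, against 53.5% of all genes. This count includes WT replicate 3 and was not taken without it. That library had 2573 normalized counts of Exosc7, against 636 and 940 in WT replicates 1 and 2. Of Exosc5 it had 508, against 112 and 239. For Exosc1 and Exosc4 it was instead below the other WT libraries. Exosc4, a ring subunit, had the lowest log2 difference, -2.27 (SE 0.89, limma adjusted p = 0.249). Exosc4 was called lower at GV in the authors' deposited table, with 1014 ± 217 normalized counts in CKO and 2847 ± 508 in WT (SD, n = 3 each). Of the 13 cofactor genes, limma called 1 at MII. Tent4b, a noncanonical poly(A) polymerase that tags nuclear RNA for the exosome, was lower, as were 0.991% of all genes. It had 2024, 1762 and 2135 normalized counts in CKO replicates 2, 3 and 4, against 5001, 5925 and 5537 in WT replicates 1, 2 and 3. The groups were tight and far apart, and WT replicate 3 lay between the other WT libraries (log2 difference -1.48, SE 0.27, limma adjusted p = 0.0336 with a range of 0.0333 to 0.587 over the alternatives). Zcchc8, a subunit of the nuclear exosome targeting complex, was called lower at MII in the authors' deposited table (log2 fold change -1.36) and by limma was at -1.33 (SE 0.31, adjusted p = 0.0703). Wdr61 and Zfc3h1 were called at GV: the authors' deposited table had Wdr61, a subunit of the SKI complex, higher (1360 ± 84.7 in CKO and 424 ± 89.1 in WT) and Zfc3h1, which links polyadenylated nuclear RNA to the exosome, lower (1958 ± 224 in CKO and 4006 ± 1343 in WT, SD, n = 3 each).

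Of 3 genes of proteins that bind XRN2, limma called 1 lower at MII, Cdkn2aipnl, against 0.991% of all genes, and Cdkn2aip (limma adjusted p = 0.453) and Nkrf (limma adjusted p = 0.612) did not pass. Cdkn2aipnl, a small protein with the XRN2-binding domain, had 760, 775 and 1172 normalized counts in CKO replicates 2, 3 and 4, against 3196, 3677 and 4620 in WT replicates 1, 2 and 3. The lowest WT library was over 2-fold above the highest CKO library, with a log2 difference of -2.10 (SE 0.33, limma adjusted p = 0.0208 with a range of 0.0247 to 0.587 over the alternatives). It was also called lower at GV in the authors' deposited table, where it averaged 2731 ± 316 in CKO and 7100 ± 496 in WT (SD, n = 3 each). Rexo4, one of the other exonuclease genes, was called lower at GV in the authors' deposited table, with 1212 ± 295 in CKO and 3442 ± 169 in WT (SD, n = 3 each). Of the 9 other exonuclease genes tested at MII, limma called none, against 1.51% of all genes.

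**Figure D5:**
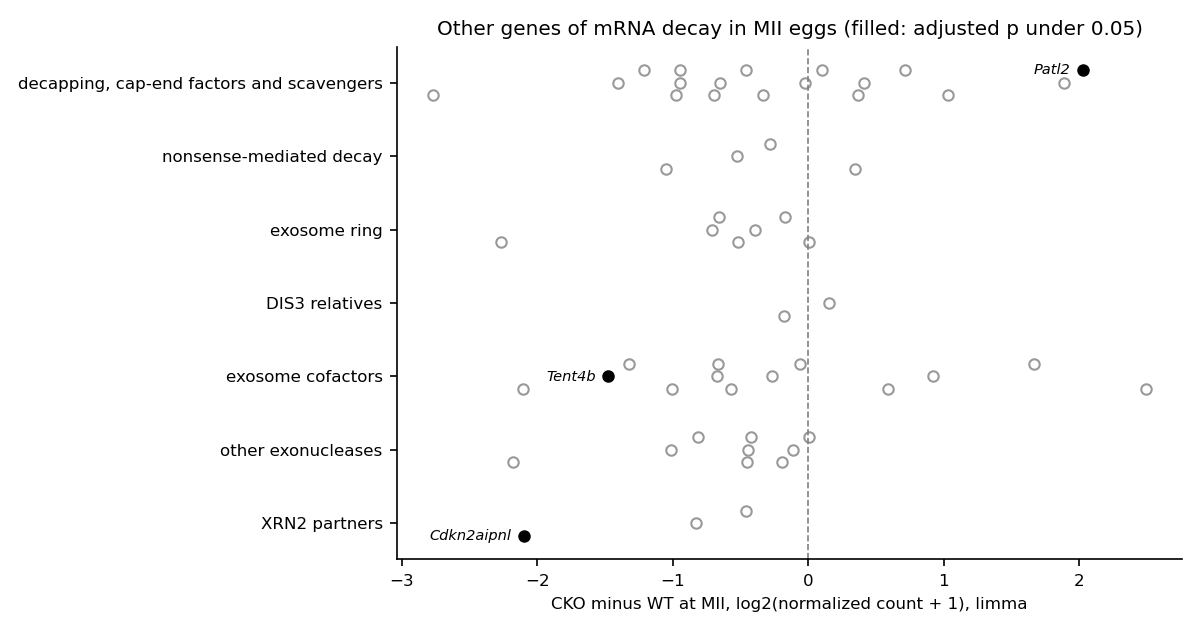
Limma log2 differences, CKO minus WT, at MII for 56 further genes of mRNA decay, grouped by role, on the log2(normalized count + 1) scale. Each circle is a gene, filled where the adjusted p is under 0.05. Patl2 lies at 2.03, Tent4b at -1.48 and Cdkn2aipnl at -2.10, and the other genes are open.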

How the data were processed

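Expression was measured by RNA sequencing of oocyte pools. Per the file headers and values, the authors deposited, for each gene and library, log10(normalized count + 1) values, beside a mean signal per gene, log2 fold changes with standard errors, the score of their test, and p-values raw and adjusted. No aligner, genome build, annotation or counting tool is named in these sources. The GV table is a selection (unadjusted p under 0.05 and over 2-fold), so the authors' deposited fold changes are given there. After back-transformation from log10, dividing the normalized counts by the worth of 1 read in each library gave whole reads for 100% of values (within 0.05 of a whole number), from which depths were summed.

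The MII test used limma (version 3.58.1, R 4.3.3) with its trend option on log2(normalized count + 1), comparing 3 CKO and 3 WT libraries for 20388 genes with a mean of at least 1, with Benjamini-Hochberg adjustment over all of them. Fold changes on this scale understate the change of low genes. The 10 genes and the list of 58 were chosen with earlier results of these data known. From that list, genes called by limma or by the authors were named, and a few others after their values were seen. The stages were normalized in separate tables and were not tested against each other. Alternatives were a pseudocount of 0.1, no filter, library size alone, limma-voom on recovered reads, a replicate block, a 2-fold minimum, leaving out each library and, added after seeing the data, library size without 2 abundant gene models.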

Additional observations from a re-analysis of the deposited data

How the results depend on the processing

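With the replicate number as a block, limma called 0 genes higher and 0 lower at MII over all genes (528 and 968 at an unadjusted p under 0.05), and 0 higher and 0 lower of the wider decay list. At MII only numbers 2 and 3 occur in both genotypes. WT replicate 1 and CKO replicate 4 therefore do not inform the genotype difference in this fit, which rests on the libraries with shared numbers. Whether the numbers pair the libraries could not be decided. The correlations of deviations were 0.049 and -0.239 at MII for the 2 shared numbers and 0.0026, 0.0819 and 0.0115 at GV. At MII, libraries with different numbers gave -0.325 to 0.318, a range that holds both values of the shared numbers. The GV values rest on genes selected for a difference. Limma-voom on recovered reads called 80 genes lower over all genes, in place of 202, and 1 of the wider list, in place of 2. Leaving out 1 library gave between 0 and 266 genes higher and between 0 and 624 lower over all genes, with 266 and 624 without WT replicate 3 and 0 without any other library (where the unadjusted p was under 0.05 for 971 to 1278 genes higher and 1409 to 1729 genes lower). Between 0 and 1 member was then lower, and of the wider list between 0 and 2 were higher and between 0 and 3 lower. Lsm14b, Patl2, Tent4b and Cdkn2aipnl kept their direction in all 12 alternatives; each lost the call under the block and in each fit that left out a library other than WT replicate 3, and Tent4b also under voom (adjusted p = 0.0651). The log2 difference of Edc3 ranged from -0.69 to 1.36 and that of Edc4 from -0.04 to 0.25 when a library was left out. Edc3 reversed to -0.24, -0.25 and -0.69 without CKO replicate 2, CKO replicate 3 and WT replicate 1, and Edc4 to -0.042 without WT replicate 3; the cause was not tested. The other 8 members kept their direction in all alternatives. The median log2 difference of all genes was -0.11, and between -0.19 and 0.02 over the alternatives that used all libraries, the highest with voom. At GV all 4 listed genes kept their direction. At MII, read numbers limit Exosc3 in CKO, with 8 to 64 reads, and Edc3, with as few as 12 reads in a CKO library and 26 in a WT library.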
